A study of Mus musculus with 15 samples.

Results

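The response of mouse biliary cells to DDC was measured as the difference between 3 RNA libraries of biliary cells from mice fed DDC and 3 from untreated mice, among 15 libraries of sorted liver cells. Genes were tested if 3 or more of the 15 libraries had a TPM of 1 or more, a relative abundance per transcript length, which took 13905 of the 24493 genes in the deposited table. DDC is a compound given in chow that blocks heme synthesis and injures both hepatocytes and bile ducts. All mice, untreated ones included, were injected when 4 weeks old with AAV-TBG-Cre, a virus in which the hepatocyte promoter TBG drives Cre, used to label cells. The DDC mice were 5 weeks old when DDC chow began, which lasted 4 weeks, and the cells were sorted straight from the liver. The other 9 libraries, 3 each, were hepatocytes of untreated and of DDC mice and reprogrammed cells of DDC mice. The labels give neither the strain, the sort markers nor whether the numbered libraries came from separate animals. The p-values therefore measure only the spread between these samples, which may be technical.

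Biliary cells, or cholangiocytes, line the bile ducts, modify bile by secreting chloride, bicarbonate and water, and sense bile flow with a primary cilium. After duct injury they multiply and spread into the lobule in what is called a ductular reaction, in which they release chemokines that draw monocytes and neutrophils, and growth factors that act on nearby fibroblasts. CD44, integrins, matrix proteases and basement membrane proteins are part of that reaction, and NF-kB is the transcription factor family best known for switching on the chemokine genes.

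The values below are scaled TPM, the TPM of each library divided by 1 scale factor, as mean ± SD with n = 3 libraries a group. Each log2 difference is the mean of log2(scaled TPM + 1) over the DDC libraries minus that over the untreated ones, and for low genes this scale gives too small a change. Adjusted p-values are from limma, a linear model fitted over all genes and all 15 libraries. A call (higher or lower, a rise or a fall) needed a log2 difference of at least 1 in either direction and an adjusted p below 0.05. Gene positions are from GENCODE M21 on the mouse assembly GRCm38, the same as mm10. Sequencing depth is unknown, because TPM do not keep the number of reads.

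The defining genes of biliary cells were high in all 6 libraries. Spp1, the gene for osteopontin (chromosome 5, 104435118 to 104441050), was 9588, 9301 and 10679 in the untreated libraries and 11245, 6214 and 8432 in the DDC libraries. The keratin gene Krt19 (chromosome 11, 100140810 to 100148665) was 364, 371 and 573 in the untreated libraries and 465, 533 and 672 in the DDC libraries, and Epcam, an epithelial adhesion molecule (chromosome 17, 87635979 to 87651129), was 283, 306 and 283 in the untreated libraries and 461, 441 and 528 in the DDC libraries. Epcam did not overlap between the groups but missed the size a call needed (log2 difference 0.71, adjusted p = 0.000896), and the groups overlapped for Spp1 and Krt19. Hepatocyte RNA was also present. Transcripts of 40 hepatocyte genes made up 12.3%, 10.3% and 10.2% of the TPM of the untreated biliary libraries and 5.86%, 8.89% and 4.76% of the DDC ones (10.9% ± 1.2 against 6.50% ± 2.14). The difference of -4.44 percentage points had p = 0.1 in an exact two-sided permutation test, the smallest p that 3 against 3 libraries allow. The median of these 40 genes was 21.8%, 15.8% and 16.8% of the mean of untreated hepatocytes in the untreated biliary libraries, and 14.4%, 24.3% and 11% of the mean of DDC hepatocytes in the DDC ones. In bulk libraries, fewer cells of a type and less RNA per cell cannot be told apart.

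The treatment separated the libraries along the first principal component, which held 63.8% of the variance, with DDC biliary library 1 apart from the other DDC libraries on the second (13.3%). Untreated libraries correlated at 0.967 to 0.975 across genes (genes are no replicates), DDC libraries at 0.938 to 0.955, and libraries of different treatment at 0.853 to 0.901. Genes with a TPM of 1 or more numbered 12850, 13076 and 13097 in the untreated libraries and 13386, 13407 and 13636 in the DDC ones (exact permutation p = 0.1). Features annotated as structural RNA moved with the treatment. The feature Mir6236, annotated as a microRNA, had deposited TPM of 19522 to 22368 in untreated and 71633 to 86903 in DDC biliary libraries, and Rn45s, the ribosomal RNA precursor, of 673 to 1024 and 2363 to 2643. Which RNA the reads counted at Mir6236 came from, ribosomal RNA included, cannot be told from this table. With structural RNA genes and Lars2 left out, 787 genes were higher and 661 lower, against 790 and 659 with them.

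DDC biliary cells had 790 genes higher (5.68% of those tested) and 659 lower (4.74%) than untreated biliary cells, and the median gene differed by -0.02. The groups did not overlap at 6976 genes, or 50.2%. The largest rises and falls were ranked among called genes without overlap that reached a mean of 10 in the higher group. The 15 largest rises held 4 chemokine genes (Ccl2, Cxcl5, Cxcl2 and Ccl20), the matrix protease genes Mmp7 and Plau, and Cd44. The others included Slpi, Ctse, Ly6d, Ltbp2, S100a6, Gabrp and Gm3776. The 15 largest falls were 13 genes of the major urinary protein family (11 named Mup, with Gm21320 and Gm2083, now Mup22 and Mup13) and the genes Elovl3 and Sult2a8, each with its higher mean in untreated hepatocytes. Hepatocyte genes were those called higher in hepatocytes than in biliary cells of untreated or of DDC mice. They were 2522 of the 13905 tested, 91 of the 790 that rose (11.5%) and 310 of the 659 that fell (47.0%). The comparison of untreated cells alone called 2173 of those tested (15.6%).

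**Figure D1:**
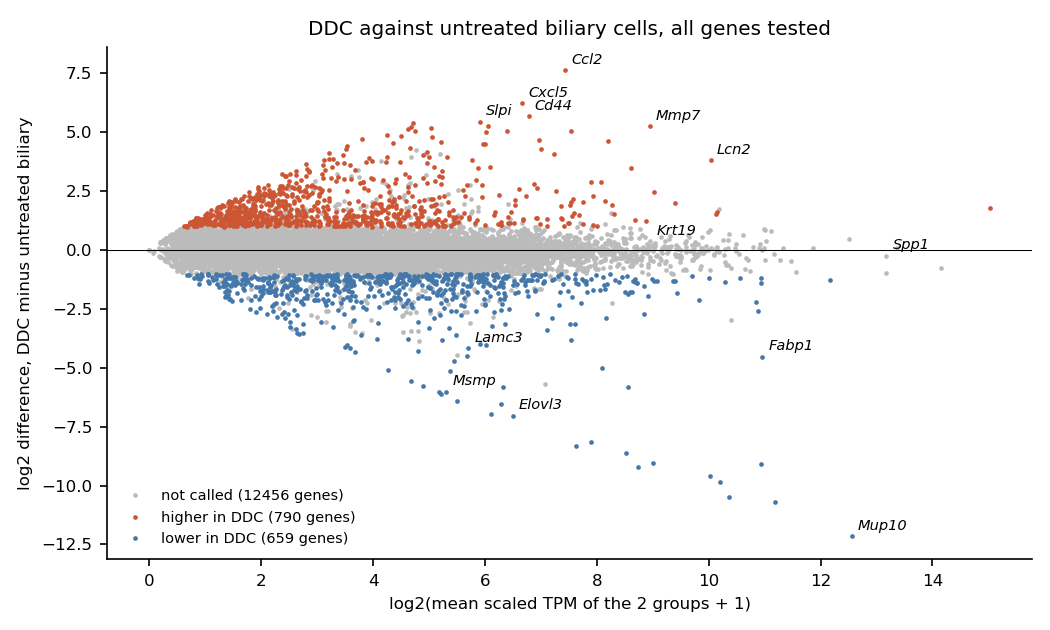
Each point is 1 of the 13905 genes tested: the horizontal axis gives log2 of the mean scaled TPM of both groups plus 1, and the vertical axis the log2 difference, DDC minus untreated biliary cells. Red points are the 790 genes called higher, led by Ccl2 at 7.64, and blue points the 659 called lower, led by Mup10 at -12.13, while Krt19 and Spp1 lie near 0.

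Among 32 lists of genes by function, the share called higher was highest for chemokines (11 of 18 tested, 61.1%), matrix proteases and their inhibitors (10 of 19, 52.6%) and injury-induced secretory and squamous genes (11 of 22). The lists with the largest shares called lower were immediate early genes (11 of 30, 36.7%) and interferon response genes (11 of 34, 32.4%). No subunit of the respiratory chain was called in either direction by limma (0 of 32, median -0.26). Its most abundant members were Ndufa4 at 808 ± 20.5 and 648 ± 78.0 and Cox4i1 at 768 ± 46.3 and 674 ± 111. The lists were chosen with earlier results of these data known, so these shares describe the lists and test nothing. Here and for each list below, the shares over all genes tested were 5.68% higher and 4.74% lower.

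**Figure D2:**
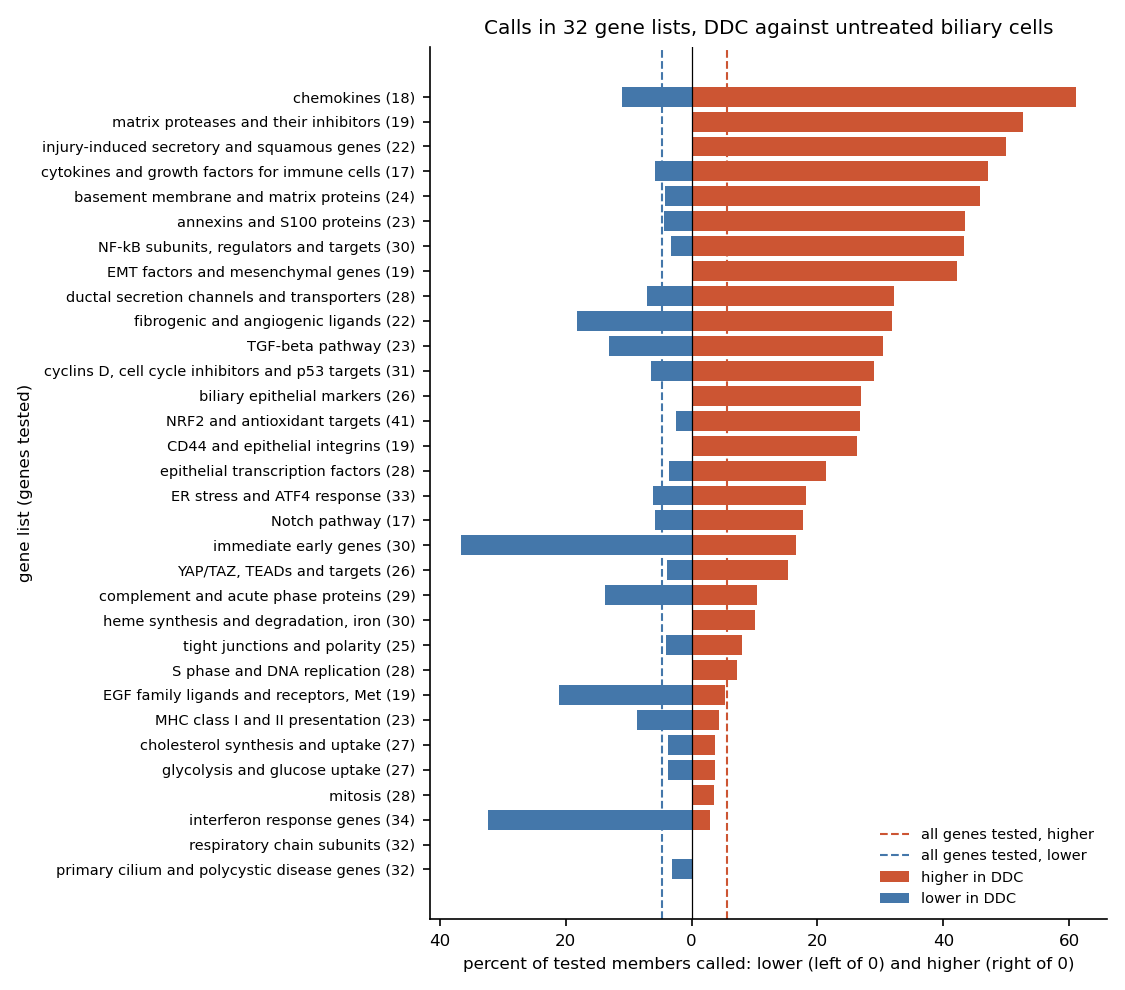
Bars give the percent of the tested members of 32 gene lists called lower (left of 0) and higher (right of 0) in DDC biliary cells, with the number of genes tested in brackets and the shares over all 13905 genes, 4.74% and 5.68%, as dashed lines. Chemokines reach 61.1% higher at the top, and the long bars to the left are immediate early genes (36.7%) and interferon response genes (32.4%).

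The 2 largest rises were of chemokine genes. Ccl2, which codes for the ligand of the monocyte receptor CCR2 (chromosome 11, 82035571 to 82037453), was 0.561, 1.10 and 0.527 in the untreated libraries and 364, 279.5 and 384 in the DDC libraries (log2 difference 7.64, SE 0.51, adjusted p = 4.85e-07). Cxcl5, a neutrophil chemokine (chromosome 5, 90759360 to 90761624), was 2.68, 1.41 and 0.766 in the untreated libraries and 234, 244 and 119.7 in the DDC libraries (log2 difference 6.25, SE 0.35, adjusted p = 1.01e-07). Every DDC library lay above every untreated one for both genes. The ranking of the largest rises took only genes without overlap, and 50.2% of all genes did not overlap, in either direction. Cxcl2, also a neutrophil chemokine (chromosome 5, 90903871 to 90905938), was 0.608, 0.392 and 0.654 in the untreated libraries and 46.7, 65.7 and 40.7 in the DDC libraries (log2 difference 5.04, adjusted p = 5.01e-08). Ccl20, which draws CCR6-bearing lymphocytes and dendritic cells (chromosome 1, 83116766 to 83119167), was 0.142, 0 and 0.0763 in the untreated libraries and 63.7, 15.4 and 28.6 in the DDC libraries (log2 difference 4.88, adjusted p = 3.48e-05), the widest spread of these 4. Also higher were Cxcl17 (0.189 ± 0.168 to 16.5 ± 1.92), Cxcl1 (33.3 ± 9.79 to 209 ± 22.2), Cxcl16 (36.9 ± 18.4 to 173 ± 29.0), Ccl7, Cxcl3, Cx3cl1 and Cxcl14. The list of 20 had 18 members tested, 11 higher and 2 lower, with a median log2 difference of 2.12.

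The 2 chemokine list members that fell were Msmp and Cxcl12. Msmp, a secreted microseminoprotein described as another ligand of CCR2 (chromosome 4, 43583216 to 43584494), was 87.6, 105 and 39.6 in the untreated libraries and 0.301, 0.0848 and 0 in the DDC libraries (log2 difference -6.01, SE 0.29, adjusted p = 3.23e-08). The groups did not overlap, and Msmp was listed at 0 in all 3 libraries of untreated hepatocytes. Cxcl12, in contrast, stood at 224 ± 80.2 in untreated hepatocytes, and its biliary level of 50.3 ± 19.1 and 17.6 ± 4.84 was 22.5% and 23.3% of the hepatocytes of the same treatment, near the medians given above for hepatocyte transcripts. Its call was lost with that hepatocyte share subtracted (log2 difference -0.13). That alternative, chosen after seeing the data, takes the mean of hepatocytes of the same treatment, times the share of each library, from that library. The rise of Cxcl14 was not called with it either (log2 difference 0.44).

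The promoters of the chemokine genes were searched for letter patterns, and those with a match are shown because 4 of the 6 called-higher chemokine genes with a promoter in the RefSeq table (build GRCm38.p6) held that of NF-kB. The pattern was GGG, any 2 bases and TTTCC on either strand in the 250 bases before the start site. The 160 bases up to the start site are given 5′ to 3′ in the direction of the gene, all on the plus strand, with each match in capitals: chr5:90891085-90891244 for Cxcl1, chr5:90903739-90903898 for Cxcl2, chr5:90785941-90786100 for Cxcl3 and chr1:83116606-83116765 for Ccl20.
Cxcl1: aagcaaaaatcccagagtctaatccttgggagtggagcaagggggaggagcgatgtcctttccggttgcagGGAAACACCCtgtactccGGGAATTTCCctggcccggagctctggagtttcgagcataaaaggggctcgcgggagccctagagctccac
Cxcl2: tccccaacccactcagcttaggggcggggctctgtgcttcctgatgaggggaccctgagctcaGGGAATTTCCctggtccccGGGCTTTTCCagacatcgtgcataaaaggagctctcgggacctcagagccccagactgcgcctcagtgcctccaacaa
Cxcl3: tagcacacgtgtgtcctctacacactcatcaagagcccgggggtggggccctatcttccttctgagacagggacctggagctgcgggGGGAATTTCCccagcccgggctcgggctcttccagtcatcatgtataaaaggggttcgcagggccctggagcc
Ccl20: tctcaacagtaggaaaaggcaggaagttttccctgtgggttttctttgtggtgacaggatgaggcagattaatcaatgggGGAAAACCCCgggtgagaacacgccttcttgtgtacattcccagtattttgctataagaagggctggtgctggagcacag
The first bases of the matches lay 89 and 71 bases before the start in Cxcl1, 97 and 78 in Cxcl2, 73 in Cxcl3 and 80 in Ccl20, and no matches overlapped. Among all 10618 tested genes with a promoter, 186 (1.75%) held the pattern, as did 26 of 585 called higher (4.44%) and 2 of 478 called lower (0.418%). Over all 32851 promoter windows of the table it was 1.41%. A match is a description of the letters and not a binding site. The table holds no entry for Ccl2 and Cxcl5.

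Genes of cytokines and of the NF-kB pathway included more rises than falls. Of 17 cytokine and growth factor genes tested, 8 were higher (47.1%, against 5.68% of all genes). Lower was 1 (5.88%, near the 4.74% of all genes), and the median was 1.12. Tnf, the gene for tumour necrosis factor, was 0.890, 0.990 and 0.747 in the untreated libraries and 28.3, 26.6 and 27.8 in the DDC libraries (log2 difference 3.93, adjusted p = 1.35e-09). The interleukin-1 receptor antagonist Il1rn was 4.30, 4.13 and 4.04 in the untreated libraries and 173, 73.4 and 121 in the DDC libraries (log2 difference 4.50, adjusted p = 0.000146), and Il23a, a subunit of interleukin-23, was 0.624 ± 0.420 to 19.8 ± 3.69. Macrophage growth factor genes rose too, Csf1 from 6.98 ± 2.02 to 66.0 ± 6.65 and Il34 from 2.49 ± 0.232 to 14.1 ± 2.90, as did Lif from 2.17 ± 0.696 to 11.8 ± 3.21. None of these 6 overlapped between the groups, as was the case for 50.2% of all genes. The member that fell was Il15 (10.1 ± 1.48 to 4.41 ± 1.12), a call lost without untreated library 2 or 3 or DDC library 3 (log2 difference -0.998, -0.98 and -0.87).

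Of 30 NF-kB subunits, regulators and targets, 13 were higher (43.3%, against 5.68% of all genes) and 1 lower (3.33%, against 4.74%), with a median of 0.96. Vcam1, an adhesion molecule for leukocytes (chromosome 3, 116109949 to 116129688), was 13.4, 14.6 and 20.6 in the untreated libraries and 260.0, 255 and 338 in the DDC libraries (log2 difference 4.06, adjusted p = 5.42e-08). Icam1, another, was 15.3 ± 4.44 to 106 ± 9.69, and the receptor gene Cd40 was 0.150 ± 0.110 to 6.17 ± 1.43. Lcn2, the iron-binding protein lipocalin 2, was 135, 96.7 and 173 in the untreated libraries and 2806, 1697 and 1400.1 in the DDC libraries (log2 difference 3.83, adjusted p = 7.45e-05). The inhibitors of NF-kB Tnfaip3 (6.88 ± 0.932 to 31.5 ± 2.84) and Nfkbia (91.1 ± 15.6 to 185 ± 12.7) and the subunit gene Relb (15.7 ± 3.87 to 52.9 ± 4.80) were also higher. Without untreated library 1 or 2 or DDC library 3, Nfkbia missed the size for a call (0.94 to 0.98). Saa3, a serum amyloid gene, was the member that fell (18.9 ± 11.2 to 3.16 ± 1.37, adjusted p = 0.0373), and the call was lost without untreated library 1 (log2 difference -1.96) or 3 (-1.72) and without any DDC library (-1.80 to -2.28), as well as with the hepatocyte share subtracted (-0.82).

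Some markers of immune cells moved with these genes. The summed level of 20 macrophage genes ran from 155 to 214 in untreated and from 528 to 715 in DDC biliary libraries. Of 18 tested, 3 were higher (Cd14, Lyz2 and Tyrobp, 16.7%) and 1 lower (Clec4f, 5.56%), against 5.68% and 4.74% of all genes. Their median was 0.07. Without DDC library 3, 3 were lower and the median was -0.42. Cd14 made up most of the DDC sum, at 63.0, 46.2 and 85.3 in the untreated libraries and 498, 422 and 495 in the DDC libraries. Csf1r, a macrophage receptor gene, was 34.0, 49.6 and 44.0 in the untreated libraries and 15.8, 23.6 and 30.7 in the DDC libraries. Cd68, another macrophage gene, went the other way, at 3.71, 3.68 and 3.95 in the untreated libraries and 7.92, 6.67 and 11.8 in the DDC libraries. Lyz2 was 7.32, 10.2 and 13.7 in the untreated libraries and 47.9, 30.6 and 82.5 in the DDC libraries, while the pan-leukocyte gene Ptprc was under 1 in all 6 libraries and the Kupffer cell gene Clec4f went from 9.59 ± 2.45 to 1.54 ± 1.45. The sum of 10 neutrophil genes ran from 2.59 to 3.6 and from 26.3 to 33.5, of which S100a8 (0.286 ± 0.495 to 15 ± 5.57) and S100a9 (0.1 ± 0.174 to 9.37 ± 1.60) were the main part, with Retnlg, Ngp, Camp and Mmp8 under 1 in all 6. Lymphocyte genes were under 1 in all 6 for 15 of 16, with Cd79a listed at 0 and Jchain, the exception, at 0.674, 0.0662 and 0.249 in the untreated libraries and 1.78, 0.316 and 2.95 in the DDC libraries. The dendritic cell genes tested, Bst2 and Zbtb46, were not called. Of them 1 was higher without untreated library 1 or DDC library 1. The part of these cells in the chemokine and NF-kB rises was not tested.

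**Figure D3:**
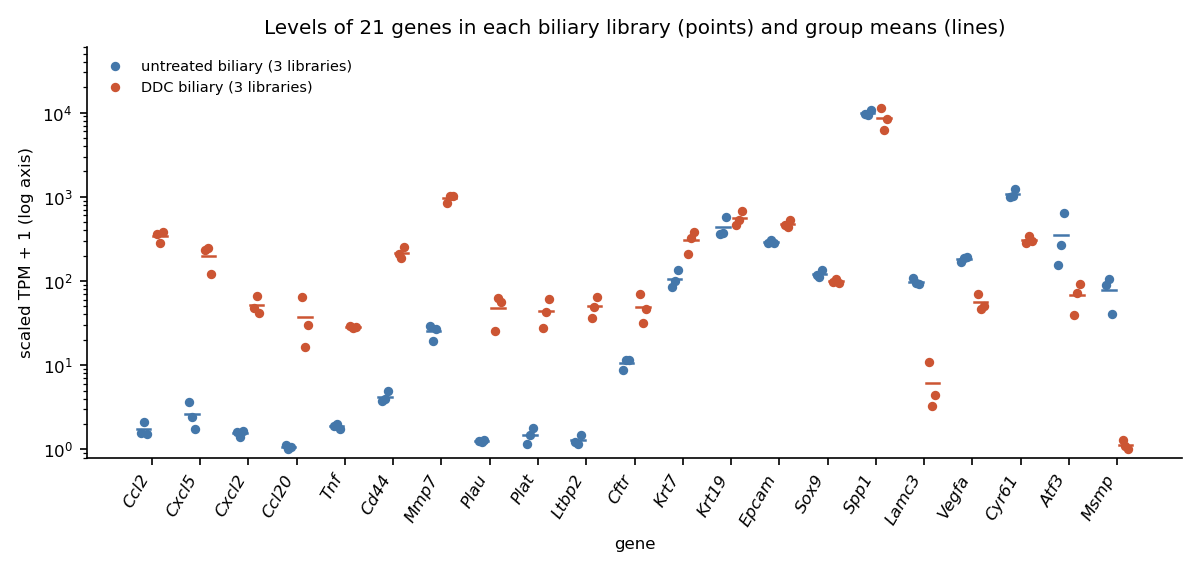
Scaled TPM plus 1 on a log axis for 21 genes in each of the 3 untreated (blue) and 3 DDC (red) biliary libraries, with group means as lines. Ccl2, Cxcl5, Cd44 and Mmp7 rise without overlap between the groups, and Lamc3, Vegfa, Cyr61, Atf3 and Msmp are lower in the DDC libraries. Krt19, Epcam, Sox9 and Spp1 were not called, although Epcam is higher and Sox9 lower in the DDC libraries without overlap.

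Cd44 and genes that remodel matrix rose in the DDC libraries. Cd44, the receptor for hyaluronan and osteopontin (chromosome 2, 102811141 to 102901665), was 2.77, 3.01 and 3.89 in the untreated libraries and 208, 187 and 249 in the DDC libraries, a 66.6-fold difference of the means (log2 difference 5.67, SE 0.30, adjusted p = 6.35e-08). Of 19 members of its list tested, 5 were higher and none lower by limma, with a median of 0.46. The integrin genes among them were Itga2 (1.55 ± 0.0898 to 33.9 ± 9.09), a collagen and laminin receptor subunit, and Itgb6 (6.45 ± 0.935 to 35.5 ± 9.29) and Itgav (33.2 ± 3.59 to 149.8 ± 22.4), whose products pair as the integrin that activates latent TGF-beta. Vcl, for vinculin of focal adhesions, was 18.9 ± 0.966 to 43.9 ± 5.26, a call that was lost without DDC library 3 (log2 difference 1.10, adjusted p = 0.0565).

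Matrix proteases and their inhibitors had 10 of 19 members higher and 0 lower by limma (median 1.21), with 15 of 19 not overlapping against 50.2% of all genes. Mmp7, the protease matrilysin (chromosome 9, 7692090 to 7699585), was already 28.4, 18.2 and 25.8 in the untreated libraries and reached 847, 1016 and 1014 in the DDC ones (log2 difference 5.27, SE 0.17, adjusted p = 1.05e-09), a 39.8-fold difference of the means with little spread in either group. Plau and Plat, the plasminogen activators of the urokinase and tissue type, went from 0.253 ± 0.0439 to 47.0 ± 19.5 and from 0.489 ± 0.325 to 42.7 ± 16.3. Plaur, the urokinase receptor, was 3.78, 3.86 and 15 in the untreated libraries and 26.9, 43.4 and 49.7 in the DDC libraries (log2 difference 2.47, adjusted p = 0.00168), and untreated library 3 was the highest of its group. Adam8 (0.775 ± 0.193 to 21.4 ± 7.67) and the protease inhibitors Timp1 (0.542 ± 0.477 to 15.2 ± 2.80) and Timp3 (14.7 ± 3.11 to 64.5 ± 10.8) were higher as well.

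Of 24 basement membrane and matrix genes, 11 were higher and 1 lower (median 0.75). Nid1, for the linker protein nidogen 1 (chromosome 13, 13437551 to 13512269), was 0.646, 0.550 and 0.637 in the untreated libraries and 26.5, 49.8 and 38.5 in the DDC libraries (log2 difference 4.56, adjusted p = 6.19e-08). Lamb3, a chain of epithelial laminin, was 6.73 ± 3.37 to 63.5 ± 10.8, and thrombospondin 1 (Thbs1) 12.3 ± 4.48 to 88.7 ± 23.9. Lama3, Lama5 and Lamb1, the collagen IV genes Col4a1 and Col4a2, Lgals3, Ecm1 and Fbln2 were also higher. The laminin chains did not move one way. Lamb2 was 72.9, 77.5 and 73.8 in the untreated libraries and 26.2, 21.1 and 29.5 in the DDC libraries (log2 difference -1.52, adjusted p = 0.00329), and Lamc3, outside that list and chosen after its values were seen, was 106, 93.3 and 91.7 in the untreated libraries and 9.96, 2.28 and 3.43 in the DDC libraries (log2 difference -4.17, adjusted p = 1.39e-05).

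In the TGF-beta pathway 7 of 23 genes were higher and 3 lower (median 0.43). Ltbp2, a matrix protein related to the latent TGF-beta binders (chromosome 12, 84783212 to 84876532), was 0.227, 0.154 and 0.482 in the untreated libraries and 34.9, 47.8 and 64.2 in the DDC libraries (log2 difference 5.24, SE 0.24, adjusted p = 2.77e-08). The ligands Tgfb1 (2.11 ± 0.252 to 9.26 ± 2.65) and Tgfb2 (12.2 ± 5.00 to 30.2 ± 2.49), the receptor Tgfbr2 (10.1 ± 0.779 to 29.5 ± 3.46), Ltbp1, and the pathway inhibitor and target Pmepa1 (5.54 ± 0.803 to 42.1 ± 13.3) rose. Ltbp4 was 16.7, 17.4 and 26.5 in the untreated libraries and 2.64, 3.33 and 5.21 in the DDC libraries (log2 difference -2.17, adjusted p = 7.73e-05), the reverse of Ltbp1 and Ltbp2, and the pseudoreceptor Bambi (15.1 ± 2.42 to 3.89 ± 1.63) fell.

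Stromal markers were called in both directions. Of 13 tested genes of stellate cells and fibroblasts 4 were higher (30.8%, against 5.68% of all genes) and 2 lower (15.4%, against 4.74%). The sum of the 20 listed ran from 134 to 148 in untreated and from 400 to 664 in DDC libraries. Rgs5, a pericyte gene, made up most of it (107, 109 and 104 in the untreated libraries and 380.4, 449 and 557 in the DDC libraries). Col1a1 was 0.344, 0.281 and 0.318 in the untreated libraries and 2.47, 1.56 and 7.32 in the DDC libraries, and Col1a2 and Col3a1 were likewise highest in DDC library 3. Without that library Col3a1 was no longer called (log2 difference 0.82, adjusted p = 0.156, against 1.46 with it), nor was it with the hepatocyte share subtracted (adjusted p = 0.0631). Des, Thy1, Hand2 and 3 further members were under 1 in all 6 libraries. Endothelial genes summed to 13.4 to 24.2 and 21.3 to 50.3, again highest in DDC library 3. The part of stromal RNA in the matrix results was not tested.

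Ligand genes moved in both directions. Among 22 fibrogenic and angiogenic ligands, 7 were higher and 4 lower (median -0.28). The rises were Wnt10a (0.313 ± 0.286 to 12.3 ± 4.24), Wnt7a (1.10 ± 0.909 to 16 ± 5.36), Wnt7b (3.13 ± 0.952 to 31.3 ± 4.97), the vasoconstrictor peptide gene Edn1 (2.86 ± 0.810 to 23.7 ± 8.95), the mitogen Pdgfb (11.2 ± 1.04 to 59.3 ± 19.5), Bmp4 and Ctgf. Vegfa, the main angiogenic factor, fell, at 165, 184 and 191 in the untreated libraries and 69.7, 46.0 and 49.9 in the DDC libraries (log2 difference -1.71, adjusted p = 0.00102). Bmp7 (12.1 ± 3.13 to 2.02 ± 0.812) and Fgf1 (13 ± 2.84 to 2.26 ± 0.174) fell as well, Fgf1 from a level 21.3% of that of untreated hepatocytes, and its call was lost with the hepatocyte share subtracted (log2 difference -0.18). Spp1, a ligand of CD44 and integrins and the most abundant of these genes, was not called (log2 difference -0.23, adjusted p = 0.688).

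Of 26 genes of YAP, the growth regulator of the Hippo pathway, its partners and targets, 4 were higher (15.4%) and 1 lower (3.85%), with a median of 0.06. Over all genes it was 5.68% and 4.74%. The other 21 were not called. Ctgf (now Ccn2, chromosome 10, 24595442 to 24598683) was 137, 163 and 173 in the untreated libraries and 302, 341 and 344 in the DDC libraries (log2 difference 1.06, adjusted p = 0.00554), and without untreated library 1 its log2 difference was 0.96 and the call was lost. Cyr61 (now Ccn1, chromosome 3, 145646976 to 145649981), its paralog and the other textbook target, was 986, 1007 and 1234 in the untreated libraries and 283, 340.0 and 293 in the DDC libraries (log2 difference -1.81, adjusted p = 0.000227). The untreated and DDC libraries did not overlap for either gene, in opposite directions. Yap1 itself was 41.2 ± 0.748 and 39.2 ± 3.01.

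In the Notch pathway, which patterns bile ducts, 3 of 17 genes were higher and 1 lower, with a median (-0.04) that turned to 0.05 in TPM as deposited. The ligand Dll1 (2.55 ± 0.352 to 10.5 ± 0.905), the fringe enzyme Lfng (0.834 ± 0.206 to 7.88 ± 4.55) and the target Nrarp (2.55 ± 0.483 to 7.72 ± 0.967) rose. Notch1 was 8.39, 6.86 and 9.89 in the untreated libraries and 2.54, 4.32 and 3.21 in the DDC libraries (log2 difference -1.11, adjusted p = 0.000843), a call lost without untreated library 3 (log2 difference -0.999) or DDC library 1 (-0.97). Jag1 (52.3 ± 5.35 and 63.4 ± 3.35) and Notch2 (49.2 ± 1.49 and 36.9 ± 4.09), the ligand and receptor mutated in Alagille syndrome, were not called. Of 19 EGF family genes with Met, 1 was higher (5.26%, near the 5.68% of all genes) and 4 lower (21.1%, against 4.74%), with a median of -0.15. Without DDC library 1, 2 were higher. Erbb4, a receptor for neuregulins, was 11.4, 11.1 and 7.28 in the untreated libraries and 1.81, 1.09 and 2.21 in the DDC libraries (log2 difference -2.01, adjusted p = 3.34e-05), and the feedback inhibitors Errfi1 (606 ± 26.2 to 186 ± 61.1) and Dusp6 (137 ± 10.4 to 50.5 ± 7.33) fell. The fall of Egfr (75 ± 21.9 to 29.7 ± 4.33) was not called with the hepatocyte share subtracted (log2 difference 1.86, adjusted p = 0.16), nor was the rise of Nrg1 (1.16 ± 0.395 to 4.39 ± 0.962, then 0.77).

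Of 26 biliary markers 7 were higher and 0 lower by limma (median 0.35). With quantile normalization, with sample weights or with the biliary libraries alone 2 were lower. In turn, 1 was lower with a replicate block, with a pseudocount of 5, by the adjusted p alone or without DDC hepatocyte library 1. Krt7, a keratin gene of ducts (chromosome 15, 101411043 to 101430313), was 83.7, 99.4 and 133 in the untreated libraries and 206, 327 and 384 in the DDC libraries (log2 difference 1.51, adjusted p = 0.000351), and the claudin gene Cldn4 was 45.1, 39.9 and 82.3 in the untreated libraries and 264, 439.7 and 546 in the DDC libraries (log2 difference 2.89, adjusted p = 0.000658). Cd24a (276 ± 6.02 to 663 ± 71.6) and Tspan8 (234 ± 50.6 to 587 ± 181), for surface proteins of ductal cells, were higher too. The biliary transcription factor gene Sox9 (121 ± 11.2 and 98.6 ± 5.12) was not called, although its libraries did not overlap and those of DDC mice were at lower values.

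Of 28 genes for ductal secretion 9 were higher (32.1%, against 5.68% of all genes tested). Lower were 2 (7.14%, near the 4.74% of all genes), and the median was 0.25. Cftr, the chloride channel opened by secretin (chromosome 6, 18170687 to 18322768), was 7.79, 10.5 and 10.5 in the untreated libraries and 69.5, 30.4 and 45.1 in the DDC libraries (log2 difference 2.15, adjusted p = 0.000634), and Sctr, the secretin receptor (chromosome 1, 120006894 to 120063536), was 9.42, 10.7 and 9.39 in the untreated libraries and 46.7, 22.7 and 29.5 in the DDC libraries (log2 difference 1.59, adjusted p = 0.000866). Both were highest in DDC library 1. Slc12a2, the cotransporter that loads chloride into secretory cells, was 9.62, 9.10 and 7.25 in the untreated libraries and 133, 80.8 and 108 in the DDC libraries (log2 difference 3.47, adjusted p = 1.87e-06). The bicarbonate transporter Slc4a4 (21.7 ± 3.09 to 54.6 ± 2.92) and the carbonic anhydrase Car9 (1.63 ± 1.08 to 5.90 ± 1.95) also rose. Slc5a1, which takes up glucose from bile, was 127, 114 and 135 in the untreated libraries and 41.3, 27.8 and 36.8 in the DDC libraries (log2 difference -1.81, adjusted p = 0.000385). The rise of Slc51b, a bile acid exporter (0.284 ± 0.266 to 12.3 ± 2.66), was not called with the hepatocyte share subtracted (log2 difference 0.75), and its biliary level was 10.9% and 17.2% of that of hepatocytes.

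Genes for the structure of the duct epithelium were held in 2 lists. All genes tested had 5.68% higher and 4.74% lower. Of 32 genes of the primary cilium and polycystic disease, 0 were higher and 1 lower (3.12%) by limma, with a median of -0.08 that was 0.01 in TPM as deposited. That gene, Cys1 (44.3 ± 4.87 to 21.3 ± 2.46, adjusted p = 0.0445), lost its call with any 1 of the 6 biliary libraries left out (log2 difference -0.95 to -1.11), and also without any untreated hepatocyte library or without reprogrammed library 3. Among 25 tight junction and polarity genes 2 were higher (8%) and 1 lower (4%): Cldn4, the pore-forming claudin Cldn2 (43.0, 45.9 and 47.9 in the untreated libraries and 284, 245 and 259 in the DDC libraries, log2 difference 2.5, adjusted p = 2.46e-06), and Cldn8, which fell (52.8, 50.9 and 42.0 in the untreated libraries and 19.5, 14.7 and 18.6 in the DDC libraries, log2 difference -1.42, adjusted p = 3.5e-05). Epithelial transcription factor genes had 6 of 28 higher and 1 lower (median -0.09), among them Runx1 (0.0684 ± 0.0334 to 3.76 ± 1.29), Foxq1 (2.90 ± 0.534 to 13.3 ± 1.15) and Foxj1 (34.5 ± 4.25 to 77.4 ± 12.7). Prox1, which acts early in liver development, was 117, 116 and 83.3 in the untreated libraries and 48.7, 27.8 and 29.7 in the DDC libraries (log2 difference -1.58, adjusted p = 0.00188). Runx2 was under 3 in every biliary library, and Klf4 (3.01 ± 1.66 to 7.5 ± 2.51) lost its call without untreated library 1 (log2 difference 0.79) or DDC library 2 (1.02) or 3 (0.95).

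Several genes that epithelia switch on after injury rose. The list of injury-induced secretory and squamous genes had 11 of 22 tested higher and 0 lower by limma (median 1.11), and 7 with the hepatocyte share subtracted. Slpi, a secreted protease inhibitor (chromosome 2, 164354070 to 164389095), was 1.18, 0.978 and 2.81 in the untreated libraries and 169, 82.2 and 96.9 in the DDC libraries (log2 difference 5.45, adjusted p = 1.74e-06), and Ly6d, a surface marker of squamous cells, was 1.94, 0.555 and 2.66 in the untreated libraries and 275, 51.6 and 63.2 in the DDC libraries (log2 difference 5.26, adjusted p = 0.00116). Hepatocytes of DDC mice held more of both, 355 ± 195 and 550.5 ± 528, so the DDC biliary level was 32.8% and 23.6% of theirs. Neither was called after the subtraction (log2 difference 3.16 and 2.16), nor was Sprr1a (1.06 ± 0.576 to 47.7 ± 35.2, 31.2% of DDC hepatocytes). Msln, for mesothelin, was 1.54, 2.47 and 13.2 in the untreated libraries and 81.2, 135 and 136 in the DDC libraries (log2 difference 4.52, adjusted p = 2.48e-05). Of the mesothelial genes, Wt1, Lrrn4 and Bnc1 were under 1 in all 6 libraries. Of the 3 tested, Msln was higher and Gpm6a lower. The mesothelial genes, Msln included, summed to 56.4 to 65.8 in untreated and 103 to 153 in DDC libraries. The part of mesothelial RNA in the rise of Msln was not tested. Sfn (10.02 ± 3.76 to 44.6 ± 12.8) and Wfdc2 (72.6 ± 12.0 to 297 ± 35.1) were higher too.

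Annexin and S100 genes, whose products bind calcium, had 10 of 23 members higher and 1 lower (2 without DDC library 1), with a median of 0.97. S100a6 (chromosome 3, 90612882 to 90624181) was 4.98, 5.74 and 27.0 in the untreated libraries and 247, 379 and 451 in the DDC libraries (log2 difference 5.07, adjusted p = 5.42e-05). Anxa1 (2.34 ± 1.24 to 58.5 ± 15.1), S100a14 (2.69 ± 1.65 to 27.3 ± 6.62) and S100b (1.37 ± 1.21 to 13 ± 3.58) rose, with hepatocytes of DDC mice at 1.28 ± 0.358 for Anxa1. Of 19 genes of EMT (epithelial to mesenchymal transition) factors and mesenchymal genes, 8 were higher and 0 lower by limma (median 0.47), and 5 were higher at a filter of 5 TPM. The larger ones in level were cytoskeletal, Tpm1 (69.5 ± 7.56 to 256 ± 46.8) and Cnn2 (6.81 ± 0.469 to 32.9 ± 9.30), beside the collagen genes highest in DDC library 3. Outside the lists, 2 of the 15 largest rises were Ctse, the protease cathepsin E (0.167, 0.153 and 0.112 in the untreated libraries and 37.3, 38.4 and 75.5 in the DDC libraries, log2 difference 5.41, adjusted p = 5.07e-08), and Gabrp, a chloride channel subunit of GABA receptors (1.62, 2.62 and 11 in the untreated libraries and 179.8, 119 and 186 in the DDC libraries, log2 difference 5.04, adjusted p = 3.49e-06). DDC hepatocytes were at 0.111 ± 0.0988 and 0.250 ± 0.214.

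Genes of mitosis were at higher values in DDC biliary cells, but few were called. Of 28 mitosis genes 26 did not overlap between the groups, against 50.2% of all genes, and their median was 1.2. Only 1, Kif23 (2.38, 4.23 and 1.23 in the untreated libraries and 9.62, 7.15 and 10.8 in the DDC libraries, log2 difference 1.57, adjusted p = 0.0261), was called by limma, and it was not called without untreated library 1 or 3 or DDC library 1 or 3. With the fit limited to the 6 biliary libraries 21 of the 28 were called higher, and 6 without DDC hepatocyte library 2. The proliferation marker Mki67 was 3.98, 6.59 and 2.14 in the untreated libraries and 11.2, 9.48 and 13.6 in the DDC libraries (log2 difference 1.32, adjusted p = 0.251), with every DDC library above every untreated one. Among 28 genes of S phase 15 did not overlap (53.6%, near the 50.2% of all genes) and 2 were higher (7.14%, near the 5.68% of all genes), with a median of 0.40. The 2 were Ccne1 (0.391 ± 0.136 to 2.88 ± 0.497) and Gins2 (7.57 ± 1.07 to 17.7 ± 3.72). Gins2 lost its call with any 1 of the 6 biliary libraries left out (log2 difference 0.96 to 1.21) or with the hepatocyte share subtracted (adjusted p = 0.0571).

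Of 31 D cyclins, inhibitors of the cell cycle and targets of p53, 9 were higher (29.0%) and 2 lower (6.45%), with a median of 0.42. Over all genes tested it was 5.68% and 4.74%. Only 1 was lower without any 1 of the untreated libraries or without DDC library 1 or 3. Cdkn2a, the locus of p16 and p19Arf (chromosome 4, 89274471 to 89294653), was 0.0574, 0 and 0.140 in the untreated libraries and 13.2, 6.86 and 10.8 in the DDC libraries (log2 difference 3.36, adjusted p = 3.1e-07). Its neighbour Cdkn2b, for p15, was 1.57, 0.893 and 1.14 in the untreated libraries and 19.8, 20.8 and 27.1 in the DDC libraries (log2 difference 3.42, adjusted p = 1.54e-05). The p53 targets Pmaip1 (1.31 ± 1.37 to 17.5 ± 6.09), Phlda3 (3.68 ± 0.573 to 37.1 ± 8.89) and Eda2r (0.382 ± 0.114 to 5.16 ± 1.10) and the growth factor binder Igfbp3 (0.844 ± 0.337 to 10.05 ± 3.84) rose. Cdkn1a, the p53 target p21, was 48.8, 53.8 and 63.9 in the untreated libraries and 34.1, 93.4 and 83.1 in the DDC libraries and was not called, with DDC library 1 below all untreated ones. Btg2, a growth inhibitor, fell (287 ± 89.9 to 106 ± 22.2).

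More interferon response genes fell than rose in DDC biliary cells. Of 34 tested, 11 were lower and 1 higher (median -0.95), and 7 were lower without untreated library 3, which held the highest untreated level of each gene given next. Ifit3, an antiviral RNA binder (chromosome 19, 34583531 to 34588731), was 10.4, 8.43 and 26.7 in the untreated libraries and 2.78, 1.94 and 1.43 in the DDC libraries (log2 difference -2.26, adjusted p = 0.00226). Ifit1, of the same family, was 13.8, 16.4 and 36.1 in the untreated libraries and 5.17, 2.98 and 2.85 in the DDC libraries (log2 difference -2.22, adjusted p = 0.00352). The immunity-related GTPases Iigp1 (128 ± 23.3 to 33.9 ± 12.2) and Igtp (66.7 ± 21.1 to 17.8 ± 4.89) fell too. Isg15 was 31.1, 36.0 and 118 in the untreated libraries and 15.7, 7.27 and 8.74 in the DDC libraries (log2 difference -2.24, adjusted p = 0.0397) and lost its call without untreated library 2 or 3, DDC library 2 or 3 (log2 difference -1.64 to -2.48) or reprogrammed library 3 (-2.24, adjusted p = 0.0513), and with the hepatocyte share subtracted (-1.97). The ligand gene Cd274, for PD-L1, was the member that rose. In hepatocytes Ifit3 went from 20.4 ± 14.7 to 3.75 ± 0.808.

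The promoters of interferon genes are shown for the same reason as those of the chemokine genes: 5 of the 8 called-lower members with a promoter in the table held the pattern of the ISRE (interferon-stimulated response element), GAAA, any 2 bases and GAAA, on either strand in the 250 bases before the start site, namely Isg15, Ifit1, Ifit3, Igtp and Irgm1. The windows are the 160 bases up to the start site, chr19:34640729-34640888 for Ifit1 and chr19:34583369-34583528 for Ifit3 on the plus strand and chr4:156200819-156200978 for Isg15 on the minus strand, with matches in capitals.
Ifit1: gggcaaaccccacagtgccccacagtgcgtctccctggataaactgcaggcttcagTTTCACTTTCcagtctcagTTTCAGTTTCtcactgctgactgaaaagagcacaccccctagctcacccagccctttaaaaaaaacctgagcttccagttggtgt
Ifit3: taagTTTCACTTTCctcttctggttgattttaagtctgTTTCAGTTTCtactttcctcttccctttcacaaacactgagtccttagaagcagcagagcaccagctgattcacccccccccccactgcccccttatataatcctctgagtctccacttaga
Isg15: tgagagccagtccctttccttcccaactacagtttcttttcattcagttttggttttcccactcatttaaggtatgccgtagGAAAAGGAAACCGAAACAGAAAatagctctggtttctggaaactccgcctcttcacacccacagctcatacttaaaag
The matches began 104 and 85 bases before the start in Ifit1 and 156 and 122 in Ifit3, and in Isg15 at 78, 72 and 66, where the 3 matches overlap each other. Of 27 interferon genes tested with a promoter 14 held the pattern, whether or not they fell, as did 3.28% of all tested genes, 2.98% of all promoter windows of the table, 6.90% of those called lower (33 of 478) and 3.42% of those called higher.

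Antigen presentation genes had 1 of 23 higher (4.35%) and 2 lower (8.70%), with a median of -0.39. The shares over all genes tested were 5.68% and 4.74%. The class II gene H2-Ab1 was 66.2, 32.3 and 76.0 in the untreated libraries and 25.5, 18.2 and 15.8 in the DDC libraries (log2 difference -1.44, adjusted p = 0.0306), a call lost without untreated library 1 or 3 or DDC library 2 or 3. H2-DMa was lower (5.55 ± 2.28 to 1.89 ± 0.735) and the protease gene Ctss higher (5.91 ± 1.69 to 16.9 ± 11.8). Both lost their calls without untreated library 1 or 3, and Ctss also without DDC library 3 (log2 difference 0.71) and with the hepatocyte share subtracted (adjusted p = 0.0519). Pigr, the receptor that carries IgA into bile (chromosome 1, 130826684 to 130852249), was 631, 472 and 409.8 in the untreated libraries and 67.0, 99.8 and 44.8 in the DDC libraries (log2 difference -2.87, adjusted p = 3.34e-05). Complement and acute phase genes, Pigr among them, had 3 of 29 higher (10.3%) and 4 lower (13.8%), with a median of -0.18. Only 2 were lower without untreated library 1 or 3 or DDC library 3, and 5 were higher without DDC library 3. The complement regulator Cd55 rose (0.863 ± 0.381 to 3.94 ± 0.676), and the acute phase gene Orm2 (12.5 ± 6.05 to 83.6 ± 59.1) was 18.5% of its level in DDC hepatocytes and was not called with the hepatocyte share subtracted.

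Immediate early genes, which respond to stimuli within minutes and also to cell isolation, included more falls than rises: 11 of 30 fell, 5 rose, and the median was -0.57. Atf3 (chromosome 1, 191170296 to 191218039) was 153, 269 and 635 in the untreated libraries and 38.1, 71.0 and 90.1 in the DDC libraries (log2 difference -2.23, adjusted p = 0.00191), and Nr4a1 was 104, 95.5 and 176 in the untreated libraries and 29.4, 28.8 and 26.3 in the DDC libraries (log2 difference -2.06, adjusted p = 0.000159). Fos (740.1 ± 226 to 293 ± 35.1), Jun (616 ± 165 to 228 ± 37.1), Egr1 (719.8 ± 193 to 299.7 ± 40.5), Egr2 (23.9 ± 6.57 to 3.42 ± 0.809) and Dusp1 (431 ± 201 to 151 ± 32.5) fell. Fosb was 52.3, 65.7 and 189 in the untreated libraries and 18.5, 36.2 and 42.2 in the DDC libraries (log2 difference -1.48, adjusted p = 0.0321) and was not called without untreated library 3 (log2 difference -0.92) or DDC library 1 (-1.13) or 2 (-1.60). Ier5 (5.95 ± 2.19 to 23.5 ± 3.92), Klf10 and Fosl2 rose. Untreated library 3 held the highest level of Atf3, Nr4a1, Fos, Jun and Egr1. The promoters were also searched for the pattern of AP-1, the dimers of Fos and Jun proteins (TGANTCA, either strand, the same 250 bases). It was in 5.86% of all tested genes with a promoter, 11.1% of those called higher and 9.62% of those called lower. It was in 6.75% of all promoter windows of the table, and 0 of the 24 immediate early genes tested with a promoter.

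Genes of the ER stress and ATF4 response had 6 of 33 higher and 2 lower (1 without untreated library 3), with a median of -0.19. Nupr1, a stress-induced cofactor, was 1.76, 2.17 and 5.34 in the untreated libraries and 43.4, 70.9 and 61.5 in the DDC libraries (log2 difference 3.94, adjusted p = 1.26e-05). Targets of ATF4 in amino acid supply rose, namely Slc7a5 (0.439 ± 0.0552 to 6.41 ± 2.65), Asns (0.884 ± 0.541 to 5.92 ± 0.743), Phgdh (9.72 ± 2.38 to 26.5 ± 1.90) and Psat1, while Atf3 fell. Ddit4 (42.4 ± 12.1 to 132 ± 38.5) lost its call without untreated library 1 or 2 or DDC library 2 or 3. In glycolysis, 1 of 27 genes was higher and 1 lower (3.70% each), against 5.68% and 4.74% of all genes. The gene that rose was Hk2 (0.0592 ± 0.00464 to 1.39 ± 0.641), and the glucose carrier Slc2a2 (149 ± 16.9 to 64.1 ± 29.0) fell. In cholesterol synthesis and uptake it was also 1 of 27 each way, Abcg1 (0.478 ± 0.0232 to 2.24 ± 0.532) and Tm7sf2 (77.8 ± 6.90 to 38.3 ± 11.6). These 4 calls were lost without single libraries: Hk2 without DDC library 3 (log2 difference 0.93), Tm7sf2 without untreated library 1 (-0.98) or DDC library 3 (-0.81), and the others without 5 of the 6 biliary libraries. Abcg1 and Tm7sf2 were not called with the hepatocyte share subtracted either (0.95 and -0.73).

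The count of antioxidant genes changed with the hepatocyte share. Of 41 NRF2 and antioxidant targets 11 were higher and 1 lower (none lower without DDC library 3; median 0.68), but 4 were higher with the hepatocyte share subtracted, and 18 with quantile normalization. The glutathione transferase Gsta1 was 7.90, 6.51 and 14.9 in the untreated libraries and 470.2, 143 and 121 in the DDC libraries (log2 difference 4.31, adjusted p = 0.000189), which is 18.4% and 17.2% of hepatocytes of the same treatment, near the medians of the 40 hepatocyte transcripts. Gsta1 and its near-identical copy Gm3776 (2.48 ± 1.60 to 126 ± 95.6) cannot be told apart with certainty, and neither was called after the subtraction (1.75 and 2.01). Gstm3, Gsta2 and Nqo1, at 18%, 17.6% and 19.5% of their level in DDC hepatocytes, were likewise not called after it. Akr1b8, by contrast, was 14.1, 11.4 and 14.8 in the untreated libraries and 46.7, 53.7 and 62.4 in the DDC libraries against 0.996 ± 0.481 in DDC hepatocytes (log2 difference 1.94, adjusted p = 5.62e-06, and 1.93 after the subtraction). Hmox1, heme oxygenase (chromosome 8, 75093621 to 75100589), was 4.91, 4.87 and 2.66 in the untreated libraries and 36.8, 24.8 and 35.3 in the DDC libraries (log2 difference 2.71, adjusted p = 0.00335, and 2.76 after). The metallothionein genes Mt1 (69.8 ± 60.4 to 708 ± 409) and Mt2 (30.3 ± 38.8 to 555 ± 381) lost their calls without untreated library 1 or DDC library 2, Mt2 also without untreated library 2 or DDC library 3, and neither was called after the subtraction. Of 30 genes of heme and iron 3 were higher (10%, against 5.68% of all genes) and 0 lower by limma (median 0.11). The 3 were Hmox1, the heme exporter Flvcr1 (5.21 ± 0.242 to 13.3 ± 0.998) and Steap4, which was not called after the subtraction (adjusted p = 0.146).

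**Figure D4:**
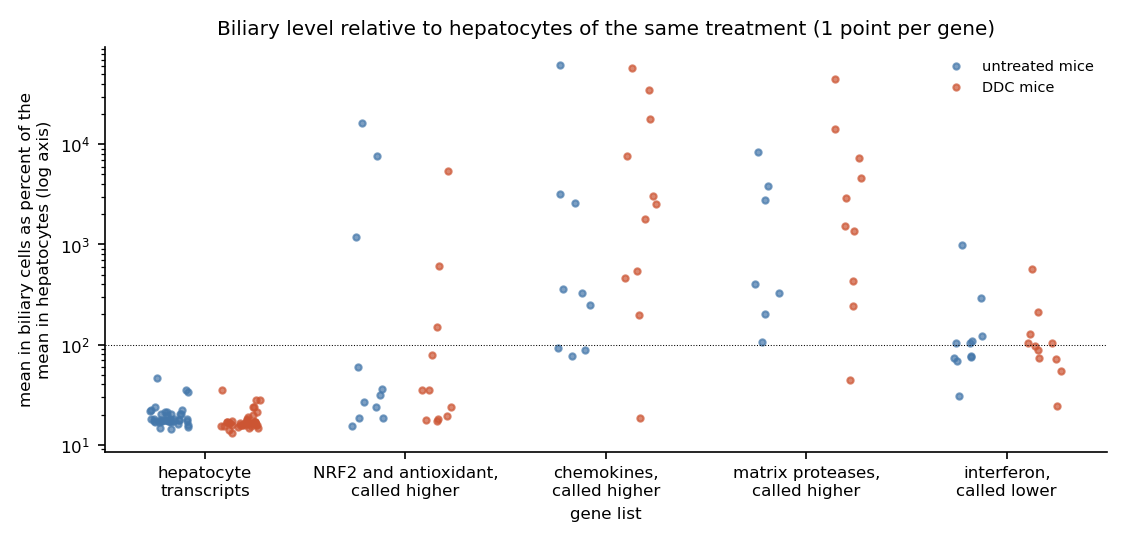
Each point is a gene: its mean level in biliary cells as a percent of its mean in hepatocytes of the same treatment, on a log axis, in untreated (blue) and DDC mice (red), and genes at 0 in hepatocytes are not drawn. The 40 hepatocyte transcripts lie between 10% and 50%, NRF2 genes called higher spread upward from that range, and chemokines and proteases called higher lie mostly above 100% (dotted line).

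Some hepatocyte genes fell in the biliary libraries. Of the 40 hepatocyte transcripts 16 were lower and 0 higher by limma (median -0.96), and 10 lower without DDC library 3. In hepatocytes 15 of the 40 were lower with DDC and 0 higher (median -0.75). With the hepatocyte share subtracted, 5 were lower and 1 higher in the biliary libraries. That share was set from these same 40 genes, so these 2 counts test nothing. Fabp1, for the fatty acid binding protein of liver, was 4505, 3242 and 3202 in the untreated libraries and 878, 53.6 and 79.4 in the DDC libraries (log2 difference -4.52, adjusted p = 0.0118) and was not called without DDC library 2 (log2 difference -3.76) or 3 (-4.04). G6pc, the last enzyme of glucose release, was 237, 219.9 and 167 in the untreated libraries and 59.2, 27.4 and 17.2 in the DDC libraries (log2 difference -2.72, adjusted p = 0.000333), at 16.8% and 16.4% of hepatocytes. Serpina1c and Serpina1a, near-identical copies, stood at 17.3% and 15.9% of DDC hepatocytes. Alb was 25702, 20245 and 20898 in the untreated libraries and 9939, 22495 and 9606 in the DDC libraries (log2 difference -0.78, adjusted p = 0.368), with DDC library 2 within the untreated range. The 21 tested genes of the major urinary protein family, whose copies are near-identical and uncertain one by one, summed to 32718 ± 13043 in untreated and 685 ± 1004 in DDC biliary libraries, and to 196496 ± 53864 and 3554 ± 4758 in hepatocytes, with 18 of the 21 called lower in biliary cells. Elovl3 (179 ± 119 to 0.205 ± 0.193) and Sult2a8 (153 ± 38.3 to 0.683 ± 0.380) were 16.3% and 15.5% of untreated hepatocytes before treatment. None of the 15 largest falls was called with the hepatocyte share subtracted.

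Beyond those, genes with little hepatocyte RNA also fell. The following were chosen after their values were seen, as the largest falls among genes whose untreated hepatocyte mean was under 0.1 of the untreated biliary mean, leaving aside microRNA loci, the transcript 3110079O15Rik and genes given above. C2cd4b was 39.3, 23.2 and 28.0 in the untreated libraries and 2.51, 0.542 and 1.13 in the DDC libraries (log2 difference -3.76, adjusted p = 2e-06), and Angptl1, an angiopoietin-related secreted protein, was 11.2, 9.22 and 10.3 in the untreated libraries and 0.210, 0.0647 and 0.0671 in the DDC libraries (log2 difference -3.33, adjusted p = 1.19e-08). Fmo2, a flavin monooxygenase, was 145, 144 and 150.1 in the untreated libraries and 22.7, 11.9 and 14.4 in the DDC libraries (log2 difference -3.13, adjusted p = 4.52e-05). Smim5 (24.5 ± 6.55 to 1.15 ± 0.774), Tgtp2, an interferon-induced GTPase (82.6 ± 24.5 to 11.2 ± 3.18), Fhl1 (18.3 ± 3.14 to 2.02 ± 0.931), Qpct (121 ± 11.1 to 19.9 ± 9.33) and the long noncoding RNA A230001M10Rik (73.2 ± 7.84 to 6.85 ± 3.11) fell with them. Likewise chosen after their values were seen were rises of genes at or near 0 before treatment. Cdh17, for an intestinal cadherin, was listed at 0 in all 3 untreated libraries and was 23.9, 21.5 and 32.4 in the DDC ones. Guca2b, for uroguanylin, was also listed at 0 and reached 21.0, 13.1 and 15.3. Cpe, for carboxypeptidase E, was 1.08, 1.90 and 1.10 in the untreated libraries and 60.8, 61.1 and 68.7 in the DDC libraries (log2 difference 4.79, adjusted p = 4.92e-08).

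The response of biliary cells was set against that of hepatocytes from the same treatments, to see which changes of the biliary libraries were also found in hepatocytes. In hepatocytes DDC raised 917 genes (6.59%) and lowered 615 (4.42%). Of the 790 biliary rises 234 also rose in hepatocytes (29.6% of the biliary and 25.5% of the hepatocyte set) and 3 had fallen there. Of the 659 biliary falls 293 were shared (44.5% and 47.6%), and 23 had risen in hepatocytes. With the hepatocyte share subtracted, 721 of the 790 rises (91.3%) and 400 of the 659 falls (60.7%) were still called in the same direction. The part of hepatocyte RNA in the shared changes was not tested. Tested directly as an interaction, the difference of the responses (biliary minus hepatocyte) was called positive at 481 genes (3.46%) and negative at 687 (4.94%). Counted in either sign, it was called at 378 of the biliary rises and 226 of the biliary falls. These 2 counts do not say in which cell type the change was larger. Larger in biliary cells by this test were the rises of Cxcl5 (0.0619 ± 0.0637 to 0.346 ± 0.0574 in hepatocytes), Cd44 (0.208 ± 0.173 to 5.22 ± 3.37), Mmp7 (listed at 0, to 2.16 ± 0.736), Plau, Ltbp2, Cxcl2, Ccl20, Cftr and Cdkn2a. For Ccl2, which rose in hepatocytes from 0.820 ± 1.42 to 74.5 ± 38.3, the difference of the responses was 2.16 with adjusted p = 0.0696.

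**Figure D5:**
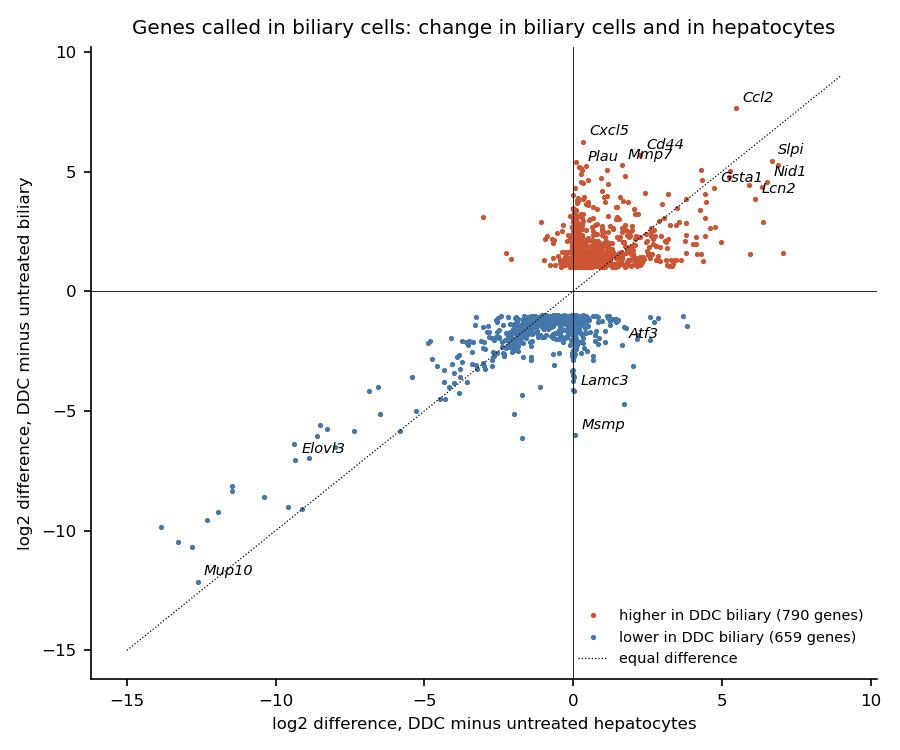
Genes called in biliary cells (790 higher in red, 659 lower in blue), with the log2 difference of DDC minus untreated hepatocytes on the horizontal axis and of DDC minus untreated biliary cells on the vertical axis; the dotted line marks equal differences. Cxcl5, Plau, Msmp and Lamc3 lie near 0 for hepatocytes, Ccl2 and Nid1 moved in both cell types, and Mup10 and Elovl3 fell in both.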

How the data were processed

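Total RNA of sorted mouse liver cells was extracted with a Qiagen RNeasy micro kit, per the labels' protocols. The deposited values are gene TPM that the authors computed with Salmon for mouse genome build mm10, per the submitters' processing notes, with no version given in the sources used here. TPM are relative to the total of their library and keep no number of reads, so counting error is unknown and tests for counts were not used.

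Genes with at least 1 TPM in at least 3 of 15 libraries were kept (13905). Each library was divided by the median of its ratios to the geometric mean over the 11924 genes without a 0, and log2(scaled TPM + 1) was fitted in limma 3.58.1 (R 4.3.3) with 5 group means (10 residual degrees of freedom) and a trend of variance on the mean. The thresholds for a call were a log2 difference of 1 and 0.05 for the Benjamini-Hochberg adjusted p over all genes. Single values were compared with exact two-sided permutation tests, computed in Python with numpy 2.4.6. Promoters came from a RefSeq table of GRCm38.p6, of which 10618 genes were matched by symbol among those tested. The fit was tested on simulated data with known changes. Tables and plots were made in Python 3.11.15 with matplotlib 3.10.9. The alternatives tried were other scalings, pseudocounts, filters, variance settings, a replicate block, only the biliary libraries, no hepatocyte or structural RNA genes, and leaving out each library in turn.

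The members and lists were chosen with earlier results of these data known. Named genes were the 15 largest called differences each way (mean of at least 10 in the higher group, no overlap of the groups), up to 6 called members of each list, up to 2 of a list without calls, and fixed markers. Other genes, such as Vegfa, Il15, Fgf1, Nfkbia, Tnfaip3, Relb, Lamb2, Timp3, Akr1b8, Btg2, Cd24a, Slc4a4, Fos, Jun, Egr1, Cxcl1, Cxcl3, Cxcl12, Cxcl16, Tgfbr2 and those given by name alone, were chosen after their values were seen. A few genes under this rule are not reported here. The subtraction of a hepatocyte share, also chosen after seeing the data, took from each biliary library the mean of the hepatocytes of its treatment times its median ratio to that mean over the 40 hepatocyte transcripts, with values under 0 set to 0.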

Additional observations from a re-analysis of the deposited data

Results flagged for a closer look

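The DDC response differed between biliary cells and hepatocytes by the interaction test of limma at 481 genes in one direction and 687 in the other. Among the genes named above, the log2 difference of the responses (biliary minus hepatocyte) was 5.91 for Cxcl5, 5.32 for Ctse, 4.89 for Plau, 4.82 for Ltbp2, 4.75 for Gabrp, 4.63 for Ccl20, 3.90 for Cxcl2, 3.64 for Mmp7 and 3.43 for Cd44. It was 3.27 for Cdkn2a, 1.95 for Cftr and 1.28 for Sctr. Hepatocytes of DDC mice had means of at most 5.22 scaled TPM for these 12 genes.

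Negative differences came in different forms. Msmp (-6.07) fell in biliary cells and was 0 to 0.0458 on average in hepatocytes. Spp1 (-6.08), Ctgf (-2.25) and Sox9 (-1.73) rose in hepatocytes, where Spp1 went from 6.13 ± 2.04 to 419 ± 156 and Sox9 from 2.76 ± 0.249 to 9.69 ± 3.6. In the biliary libraries Ctgf rose less, while Spp1 and Sox9 had lower means with DDC and were not called.

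Genes of the major urinary protein family and other hepatocyte genes had larger log2 falls in hepatocytes than in biliary libraries, giving 3.99 for Mup19, 3.34 for Mup12, 3.14 for Gm2083, 3.01 for Mup17, 2.73 for Gm21320, 2.31 for Elovl3, 1.94 for Mup9 and 1.48 for Sult2a8. Their untreated biliary level was 11.7% to 16.3% of that of untreated hepatocytes, and Mup19, Mup12 and Mup17 were listed at 0 in all DDC hepatocyte libraries. On this scale, log2(scaled TPM + 1), a gene near 0 in both DDC groups falls further where its untreated level is higher. The summed level of the family went from 196496 to 3554 in hepatocytes and from 32718 to 685 in biliary libraries.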

How the results depend on the processing

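Of 216 genes under the naming rule, 131 kept their direction and side of the call under every alternative that tested them. A further 74 changed their side under at least 1, and 11 reversed or, for Mup2, went to 0. The filter of 5 TPM tested 204 of them, the fit without structural RNA genes 211, and those without hepatocyte genes 169 and 164. A pseudocount of 5 gave 363 genes higher and 387 lower in DDC biliary cells, and 260 and 322 for the difference of the responses. The adjusted p alone gave 1869 and 1769, and 777 higher for that difference. Leaving out the genes of untreated hepatocytes gave 373 lower, and leaving out those of untreated or DDC hepatocytes, chosen after seeing the data, 340. Subtracting the hepatocyte share, chosen likewise, gave 791 higher for the difference of the responses. It reversed Gm21320 (0.49), Gm2083 (0.22), Sult2a8 (0.25), Mup17 (0.0699), Egfr (1.86), Fabp1 (3.07), G6pc (0.0685), Serpina1c (0.47), Serpina3k (0.89) and Nqo1 (-0.13). The log2 difference of Mup2, counted with them, went to 0.00 and did not turn. None of these 11 was then called. That alternative sets values under 0 to 0, so by its construction a gene near the hepatocyte share can change sign. The cause of these and of the other changes was not tested. Hepatocyte transcripts as a median ratio to untreated hepatocytes differed by -7.69 percentage points, and genes of at least 5 TPM by 266.7 per library against 468.7 at 1 TPM.

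Leaving out each library in turn gave 704 to 877 genes higher and 514 to 789 lower, 402 to 525 and 557 to 729 for the difference of the responses, 388.8 to 513.8 more genes detected, and -5.63 to -3.56 percentage points of hepatocyte transcripts. Leaving 2 libraries in a group assumes that they vary like the other groups. Same-numbered untreated and DDC biliary libraries had deviations correlated at 0.09, -0.12 and 0.04 across genes, so the numbers were not taken as pairs across treatments. That check does not cover same-numbered libraries of different cell types within a treatment, whose consensus correlation was 0.33. The main fit had no block and so left out any such pairing, also for the difference of the responses (481 higher and 687 lower). A replicate block gave 809 higher and 698 lower, and 521 and 734 for the difference of the responses (805 and 692, and 585 and 825, as a block within treatment). Depth is unknown, so the counting error of low values could not be given.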

Other observations

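The reprogrammed cells of DDC mice gave a further level for the genes that moved most in biliary cells. They held Ccl2 at 320.4 ± 118, Cxcl5 at 82.5 ± 32.6, Cd44 at 127 ± 25.7, Mmp7 at 412 ± 31.8 and Msmp at 0.256 ± 0.291.

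Untreated biliary library 3 held the highest untreated level of several genes that were higher in the DDC libraries, S100a6 (4.98, 5.74 and 27.0), Gabrp (1.62, 2.62 and 11), Msln (1.54, 2.47 and 13.2), Wfdc18 (5.43, 5.40 and 19.9) and Mt2 (8.65, 7.19 and 75), and also of interferon and immediate early genes that were lower in them, such as Isg15 (31.1, 36.0 and 118) and Atf3 (153, 269 and 635). DDC biliary library 1 held the highest DDC level of Ly6d (275, 51.6 and 63.2), Gm3776 (236, 71.7 and 69.1), Ccl20 (63.7, 15.4 and 28.6) and Sprr1a (87.1, 19.3 and 36.7). These genes were chosen after their values were seen.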
